A study of Mus musculus with 3 samples.

Results

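The 10 survival and death genes of the BCL2 family described here set whether the outer mitochondrial membrane of a cell stays sealed, and were followed in mouse macrophages. They were taken as a fixed list of gene symbols: 6 survival members (Bcl2, Bcl2a1a, Bcl2a1b, Bcl2a1d, Bcl2l1 and Mcl1), 2 effectors (Bax and Bak1) and 2 BH3-only members (Bcl2l11 and Pmaip1). All 10 were found once among 55536 annotated genes. The data are total RNA sequencing, depleted of ribosomal RNA, of the cytosolic fraction of bone marrow-derived macrophages (BMDM), which are primary macrophages grown in culture from marrow precursors. The mice were C57BL/6J. All 3 libraries belong to a single group: the cells were held in 100 ng/ml Lipid A for 12 h, kept for 12 h after it was washed out, and then exposed to 100 ng/ml Lipid A a second time for 50 min. Lipid A is the membrane anchor of bacterial lipopolysaccharide and a ligand of Toll-like receptor 4. The labels name the libraries biological replicates 1, 2 and 3, from 1 µg of RNA each and fragments of 250 to 400 bases. They give 1 donor entry for all, no sex and no age, and they do not say whether marrow of several animals was pooled. The p-values below therefore refer to these cultures, either to differences between them beyond counting error or to differences between members within each. No unstimulated library, no library before the second exposure and no nuclear fraction was analysed here, so the values are levels under 1 condition and none of them shows induction or repression.

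The family works by protein binding. Survival members hold the effectors in check, and BH3-only members occupy the groove of survival members or engage effectors directly, after which BAX and BAK form pores, cytochrome c leaves the mitochondrion and caspases are activated. In macrophages the A1 proteins (genes Bcl2a1a, Bcl2a1b and Bcl2a1d) and BCL-XL (gene Bcl2l1) are known as products of NF-kB target genes, and MCL1 as a survival protein with a short half-life that myeloid cells need. Levels are given in TPM, a measure of transcript abundance relative to the whole library that divides by transcript length and so allows genes to be compared. Spread between replicates is given in CPM, counts relative to library size after TMM scaling, which does not divide by length.

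The sequences below show what separates the members and their transcripts. The 3 A1 copies lie within the same region of chromosome 9, and a stretch from the RefSeq promoter windows of the GRCm38.p6 build (250 bases before to 50 after each annotated start) shows how alike they are; the fourth copy, Bcl2a1c, is shown because it shares the stretch but had few reads. Capitals mark AGGAAGT, a core of the kind bound by PU.1 and other ETS factors. The stretches are chr9:88956780-88956855 on the plus strand for Bcl2a1a, chr9:89199089-89199164 on the plus strand for Bcl2a1b, chr9:88731915-88731984 on the minus strand for Bcl2a1d and chr9:114329885-114329960 on the plus strand for Bcl2a1c.
Bcl2a1a: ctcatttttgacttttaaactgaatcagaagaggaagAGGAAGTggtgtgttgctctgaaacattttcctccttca
Bcl2a1b: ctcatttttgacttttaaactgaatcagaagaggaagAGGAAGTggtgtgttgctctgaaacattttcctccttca
Bcl2a1d: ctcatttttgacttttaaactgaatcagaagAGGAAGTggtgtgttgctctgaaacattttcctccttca
Bcl2a1c: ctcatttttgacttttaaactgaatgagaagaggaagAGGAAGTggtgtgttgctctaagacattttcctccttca
Bcl2a1a and Bcl2a1b are identical over these 76 bases. Bcl2a1d lacks 6 of them and has 0 mismatches to either, and Bcl2a1c has 3 mismatches to both. The 7 letters, searched on both strands, stand in 3072 of the 32851 RefSeq promoter windows (9.35%). Of the 10 genes searched (9 members with an entry, and Bcl2a1c), the windows of Bak1 and of the 4 A1 copies hold the letters. A kB motif was searched on both strands of the same windows, as a pattern that allows several letters at some positions. It is in 4.51% of all windows and among these 10 genes only in those of Bcl2l1. These are matches of letters and not evidence of binding.

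Transcript sequences, from GENCODE M21 on GRCm38 (mm10), show the parts by which the transcripts of Bak1, Mcl1 and Bcl2l11 differ. The first capitals are the 20-base exon of Bak1-201 at chr17:27021663-27021682 on the minus strand, which Bak1-202 lacks. The capitals of the Bak1-202 line are the 5 bases at chr17:27022873-27022877 on the minus strand that Bak1-204 lacks. The capitals of the Mcl1 line are the 138 bases within coding exon 1 at chr3:95658909-95659046 on the plus strand, present in Mcl1-201 and missing from Mcl1-202. The last line is the 258-base stretch of Bcl2l11-205 at chr2:128128757-128129014 on the plus strand. There the lower-case 168 bases are kept by Bcl2l11-205 (the BimEL layout) and lost in Bcl2l11-203 (BimL), and the 90 bases in capitals are kept by both and lost, with the rest, in Bcl2l11-204 (BimS).
Bak1-201: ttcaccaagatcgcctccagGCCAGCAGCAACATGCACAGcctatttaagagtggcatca
Bak1-202: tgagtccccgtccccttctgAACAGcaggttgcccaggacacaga
Mcl1-201: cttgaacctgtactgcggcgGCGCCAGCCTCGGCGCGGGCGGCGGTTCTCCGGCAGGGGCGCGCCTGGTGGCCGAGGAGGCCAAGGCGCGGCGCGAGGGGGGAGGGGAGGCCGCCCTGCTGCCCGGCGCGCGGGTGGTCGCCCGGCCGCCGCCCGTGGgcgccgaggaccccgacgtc
Bcl2l11-205: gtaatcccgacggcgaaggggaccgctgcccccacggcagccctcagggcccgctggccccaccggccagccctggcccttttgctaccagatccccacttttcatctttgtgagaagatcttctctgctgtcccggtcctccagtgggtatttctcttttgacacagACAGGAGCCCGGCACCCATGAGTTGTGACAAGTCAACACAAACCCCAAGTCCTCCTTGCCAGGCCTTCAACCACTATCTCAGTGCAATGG
The 20 and the 5 bases of Bak1 both leave a remainder of 2 after division by 3, so each shifts the reading frame. The 138 bases of Mcl1 and the 258 bases of Bcl2l11 leave a remainder of 0.

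Summed over genes, replicate 1 had 47972062 expected counts, replicate 2 had 54409436 and replicate 3 had 53491957, so 3 counts, the limit used for a gene not seen, correspond to 0.0555 to 0.0592 CPM after TMM scaling. The 8 macrophage markers were all above 1 TPM in every library (Adgre1 at 672, 728 and 735 TPM), with a summed level of 6077 to 7869 TPM. Of 8 neutrophil markers 3 passed the same limit and their list summed to 10.3 to 12.4 TPM, with Ly6g at 0. The sums were 0.07 to 0.29 TPM for 6 T and NK cell markers, 0.36 to 0.73 TPM for 4 B cell markers, 1.15 to 1.48 TPM for 4 dendritic cell markers and 0.08 to 0.37 TPM for 4 mast cell markers, with Fcer1a at 0. The libraries differ in a way that touches every TPM below. The 7SL RNAs took 55.0, 64.0 and 56.6% of TPM and protein-coding genes 33.3, 26.1 and 37.0%, which moved the median gene by 0.10, -0.23 and 0.13 on the log2 TPM scale, against -0.02, 0.00 and 0.01 on the log2 CPM scale. All 4 listed RNAs that stay in the nucleus (Malat1, Neat1, Xist and Kcnq1ot1) were highest in replicate 1 and lowest in replicate 3, with Malat1 at 5966, 3089 and 1426 CPM.

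Of the members, 9 of 10 reached 1 TPM in every library, against 41.1% of 22028 protein-coding genes. Only Bcl2 did not, at 0.69 TPM in replicate 2. Most of the mRNA of these 10 genes was that of the 6 survival members, with Mcl1 and the A1 copies far above Bcl2l1 and Bcl2. Summed over all annotated transcripts, both effectors were present at similar levels, and both BH3-only members lay below them. Most of the Bak1 TPM, though, was on transcripts annotated as targets of nonsense-mediated decay, as given below.

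**Figure D1:**
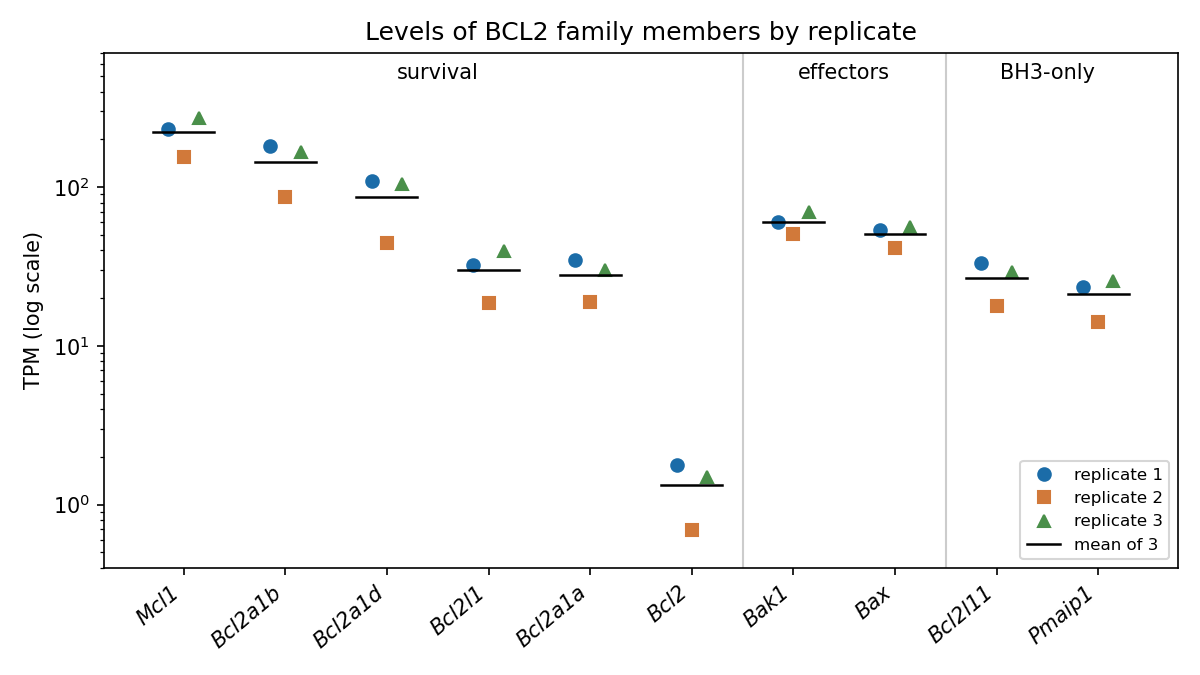
TPM of each member (y axis, log scale) in replicates 1, 2 and 3 (points) with the mean of the 3 (line), ordered by mean within survival, effector and BH3-only members. Mcl1 averages 221 TPM and Bcl2 1.32 TPM, and replicate 2 is the lowest point for all 10 members on this scale.

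Mcl1 (ENSMUSG00000038612.16, chr3:95658788-95663176, plus strand), the short-lived survival protein that binds BAK, BIM and NOXA, was the highest member. It had 234, 156 and 274 TPM in replicates 1, 2 and 3, from 48027, 45134 and 54638 counts, and averaged 221 ± 60.0 TPM (SD, n = 3). That placed it above 97.9% of the 9059 protein-coding genes with at least 1 TPM in every library. In CPM it had 942, 834 and 1079, a span of 1.29 times between lowest and highest.

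The A1 genes encode small survival proteins of blood cells. Bcl2a1b (ENSMUSG00000089929.1, chr9:89199209-89207827, plus strand) had 181, 86.0 and 166 TPM and averaged 144 ± 50.9 TPM (SD, n = 3). Bcl2a1d (ENSMUSG00000099974.1, chr9:88723285-88731914, minus strand) had 110, 44.2 and 105 TPM and averaged 86.2 ± 36.5 TPM. Bcl2a1a (ENSMUSG00000102037.1, chr9:88956900-88962419, plus strand) had 34.5, 18.9 and 30.2 TPM and averaged 27.9 ± 8.07 TPM. The order of the 3 copies was the same in each library, and replicate 2 was the lowest for each.

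Since reads of near-identical genes can be split wrongly, the values of single A1 copies are less certain than their sum. Without gaps, the annotated transcripts are 98.2% identical between Bcl2a1a and Bcl2a1b (15 mismatches), 98.8% between Bcl2a1a and Bcl2a1d (10 mismatches) and 99.1% between Bcl2a1b and Bcl2a1d (7 mismatches). The deposited posterior SD of the count was 1.41, 1.56 and 1.62% of the Bcl2a1a count, 0.506 to 0.728% of the Bcl2a1d count and 0.283 to 0.321% of the Bcl2a1b count. It was 0 for Mcl1, Bcl2l1, Bcl2l11 and Pmaip1, and its median over 9548 expressed genes was 0. The posterior SD thus leaves out counting error and the spread between cultures. Of the summed TPM of the 3 copies, Bcl2a1b held 56.2 ± 1.35%, Bcl2a1d 32.7 ± 2.73% and Bcl2a1a 11.1 ± 1.38% (SD, n = 3). The second transcript table, in kallisto layout, gave 55.5, 33.3 and 11.2% in the same order. The split was thus nearly the same in both tables. The fourth copy, Bcl2a1c, had 16, 3 and 11.5 counts (1.00, 0.13 and 0.67 TPM), and in replicate 2 it was no higher than the 3-count limit.

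Bcl2l1 (ENSMUSG00000007659.18, chr2:152780668-152831728, minus strand), the BCL-XL gene, had 32.1, 18.5 and 39.4 TPM and averaged 30.0 ± 10.6 TPM (SD, n = 3). Bcl2 (ENSMUSG00000057329.7, chr1:106538178-106714274, minus strand), the founding survival gene and the one on which lymphocytes rely, had 1.77, 0.69 and 1.5 TPM and averaged 1.32 ± 0.562 TPM. It was above only 1.27% of the protein-coding genes with at least 1 TPM in every library, a limit that Bcl2 itself misses in replicate 2. A mean close to that limit must rank low in this set, which holds 41.1% of all protein-coding genes. Behind the Bcl2 level stood 831, 473 and 709 counts. Its low level thus does not rest on a handful of reads. As the libraries are of bulk RNA, a low level in every cell and a high level in a few cells cannot be told apart, nor can fewer cells and less RNA per cell.

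Bax (ENSMUSG00000003873.11, chr7:45461697-45466898, minus strand), the effector that is mostly cytosolic before activation, had 53.7, 41.3 and 56.2 TPM and averaged 50.4 ± 8.0 TPM (SD, n = 3). Bak1 (ENSMUSG00000057789.14, chr17:27019810-27029009, minus strand), the effector that sits in the mitochondrial membrane, had 60.6, 50.5 and 69.3 TPM and averaged 60.1 ± 9.39 TPM. Bax held 45.6% and Bak1 54.4% of the effectors' TPM (SD of each 1.23 percentage points), and Bak1 was the higher in all 3 libraries. This counts every Bak1 transcript. Those annotated as protein-coding had 14.6, 9.86 and 23.2 TPM in replicates 1, 2 and 3. Bax-201, a coding transcript of Bax, had 45.4, 36.2 and 48.1 TPM.

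Bcl2l11 (ENSMUSG00000027381.16, chr2:128126038-128162547, plus strand), the gene of BIM, which binds all survival members, had 33.1, 17.8 and 29.0 TPM and averaged 26.6 ± 7.93 TPM (SD, n = 3). Pmaip1 (ENSMUSG00000024521.8, chr18:66458533-66465565, plus strand), the gene of NOXA, which binds MCL1 and A1, had 23.5, 14.1 and 25.8 TPM and averaged 21.1 ± 6.20 TPM. Bcl2l11 held 55.8% and Pmaip1 44.2% of their joint TPM (SD of each 2.79 percentage points).

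Within a library the TPM ratio of a pair of members is free of the shift that 7SL brings. For such comparisons, 10 differences on the log2(TPM + 1) scale were fixed. Each was put to a two-sided sign-flip permutation test, exact over the 3 libraries, whose smallest possible p is 0.25, so none could reach 0.05. Mcl1 exceeded Bcl2l1 by 2.87 ± 0.13 (SD, n = 3), a TPM ratio of 7.55 ± 0.77. The A1 copies together, at 325, 149 and 301 TPM, exceeded Bcl2l1 by 3.05 ± 0.22, a ratio of 8.61 ± 1.34. Against Bcl2, at the low end, the difference was 6.57 ± 0.19 for Mcl1, 6.76 ± 0.25 for the A1 sum and 3.71 ± 0.27 for Bcl2l1. Since the TPM of Bcl2 is near the pseudocount of 1, these 3 differences are understated and still move with the scale of a library. The TPM ratios were 180 ± 46.8 for Mcl1 over Bcl2 (132, 226 and 182 in replicates 1, 2 and 3), 200 ± 16.2 for the A1 sum and 23.7 ± 4.85 for Bcl2l1. With a pseudocount of 0.1 the differences were 7.34, 7.52 and 4.43 in the same order of genes. All 5 differences had the same sign in 3 of 3 libraries and were many times their SD (exact permutation p = 0.25 each, 0.278 adjusted over the 10 pairs).

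Mcl1 and the A1 sum were not separated. Mcl1 minus the A1 sum was -0.47, 0.06 and -0.14 in replicates 1, 2 and 3, and averaged -0.18 ± 0.27 (exact permutation p = 0.50), and with the TPM of the kallisto-layout table the mean was on the other side of 0, at 0.13. Bax minus Bak1 was -0.25 ± 0.07 and Bcl2l11 minus Pmaip1 0.32 ± 0.16, each with 1 sign in 3 of 3 libraries. The summed survival members, at 593, 324 and 615 TPM, exceeded the summed effectors, at 114, 91.8 and 126 TPM, by 2.15 ± 0.30, a ratio of 4.54 ± 0.89. The summed effectors exceeded the summed BH3-only members, at 56.6, 31.9 and 54.8 TPM, by 1.23 ± 0.25, a ratio of 2.40 ± 0.44. These 4 differences had an exact permutation p of 0.25 each. The sums cover the listed members only, and the effector sum counts every Bak1 transcript. A ratio of mRNA levels does not give the ratio of the proteins.

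By mean TPM the order was Mcl1, Bcl2a1b, Bcl2a1d, Bak1, Bax, Bcl2l1, Bcl2a1a, Bcl2l11, Pmaip1 and Bcl2. A neighbouring pair was taken as separated where the difference kept its sign in all libraries and exceeded its SD. Bcl2a1d and Bak1 were not (0.41 ± 0.54 on the log2(TPM + 1) scale), nor were Bcl2l1 and Bcl2a1a (0.08 ± 0.26). The steps at both ends of the order were separated: Mcl1 above Bcl2a1b by 0.65 ± 0.25 and Pmaip1 above Bcl2 by 3.24 ± 0.16, a value that the pseudocount lowers. Bcl2a1a and Bcl2l11, which had close levels, differed by 0.07 ± 0.01. In the kallisto-layout table Bcl2l11 was instead the higher in each library, with means of 12.6 TPM for Bcl2l11 and 11.9 TPM for Bcl2a1a. The order of these neighbours thus depends on the table.

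**Figure D2:**
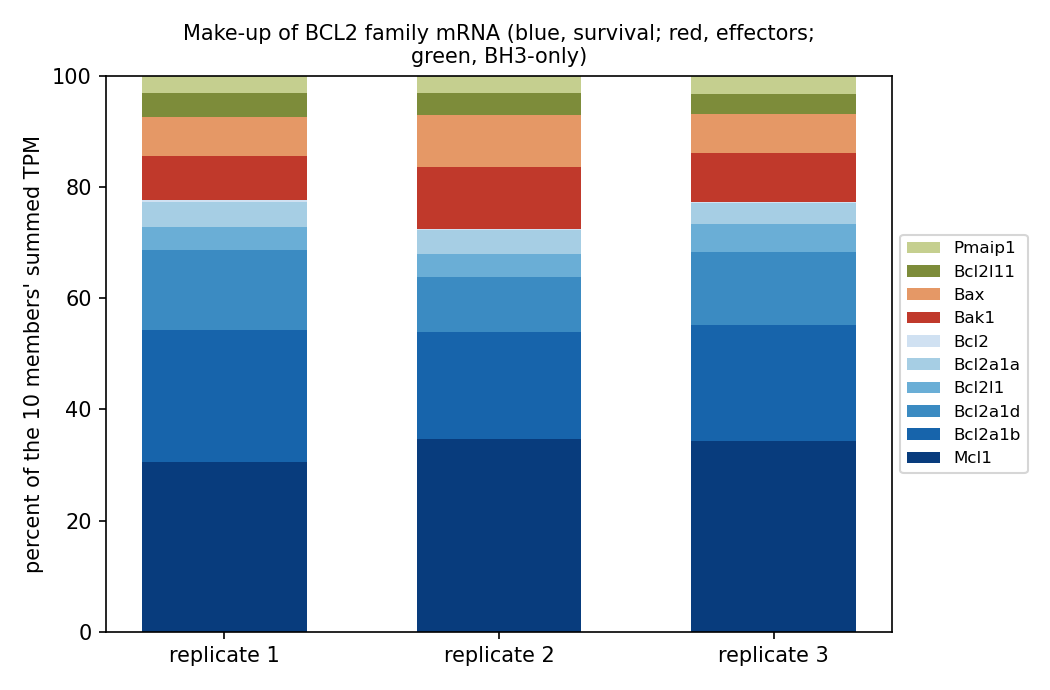
Percent of the summed TPM of the 10 members held by each (y axis) in replicates 1, 2 and 3 (bars), with survival members in blue, effectors in red and orange and BH3-only members in green. Survival members hold 77.6, 72.4 and 77.3%, and the effectors' share is largest in replicate 2 at 20.5%.

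As a share of the members' TPM, survival members held 75.8 ± 2.95%, effectors 17.1 ± 2.99% and BH3-only members 7.14 ± 0.26% (SD, n = 3). The list holds 6 survival genes and 2 of each other class, so these shares are of the list and not of the whole family. Bid, a BH3-only gene at 18.3 TPM, is for instance not in it. Within the survival members, Mcl1 held 44.0 ± 4.32%, the A1 copies 49.9 ± 4.5%, Bcl2l1 5.84 ± 0.51% and Bcl2 0.25 ± 0.04%. The unequal spread has a pattern: the effectors held 14.96, 20.5 and 15.8% in replicates 1, 2 and 3, whereas the BH3-only members held 7.41, 7.12 and 6.89%.

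Replicates can differ by more than the counting of reads allows. Each gene's counts were tested for this with a Poisson heterogeneity chi-square test, adjusted by Benjamini-Hochberg over 13827 genes. Of the members, 9 of 10 differed between replicates beyond counting error, where 70.4% of all tested genes did, so that passing is usual at this depth. Bax was the member that did not pass, with 48.6, 50.9 and 52.0 CPM, a span of 1.07 times and an adjusted p of 0.0673. The other effector, Bak1, had 135, 155 and 163 CPM, a span of 1.21 times (adjusted p of 5.12e-31).

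The widest spans were in survival members. Bcl2 had 16.3, 8.74 and 14.0 CPM, a span of 1.87 times (adjusted p of 1.40e-26), and Bcl2a1d 98.5, 53.7 and 95.6 CPM, a span of 1.83 times (adjusted p of 1.39e-175). Bcl2a1b spanned 1.55 times with 151, 97.1 and 141 CPM, and Bcl2l1 1.505 times with 94.1, 75.4 and 113 CPM. The spans of Bcl2 and the A1 copies came from replicate 2: without it they were 1.16 times for Bcl2, 1.03 for Bcl2a1d and 1.07 for Bcl2a1b. That of Bcl2l1 was 1.21 times without replicate 2 and 1.25 times without replicate 3. Bcl2a1a, with 28.8, 21.4 and 25.8 CPM, spanned 1.35 times. Pmaip1, with 81.5, 65.7 and 88.7 CPM, also spanned 1.35 times. Bcl2l11, with 164, 129 and 160.4 CPM, spanned 1.28 times. The biological coefficient of variation from edgeR takes counting error out and draws each gene's value towards that of genes of similar abundance. It was 0.237 for Bcl2, 0.231 for Bcl2a1d and 0.104 for Bax, where the median of all tested genes was 0.164. For Bax the SD was 1.73 on a mean of 50.5 CPM, so its 0.104 is not its own spread alone. Over the members the median coefficient was 0.154, near that of all genes.

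**Figure D3:**
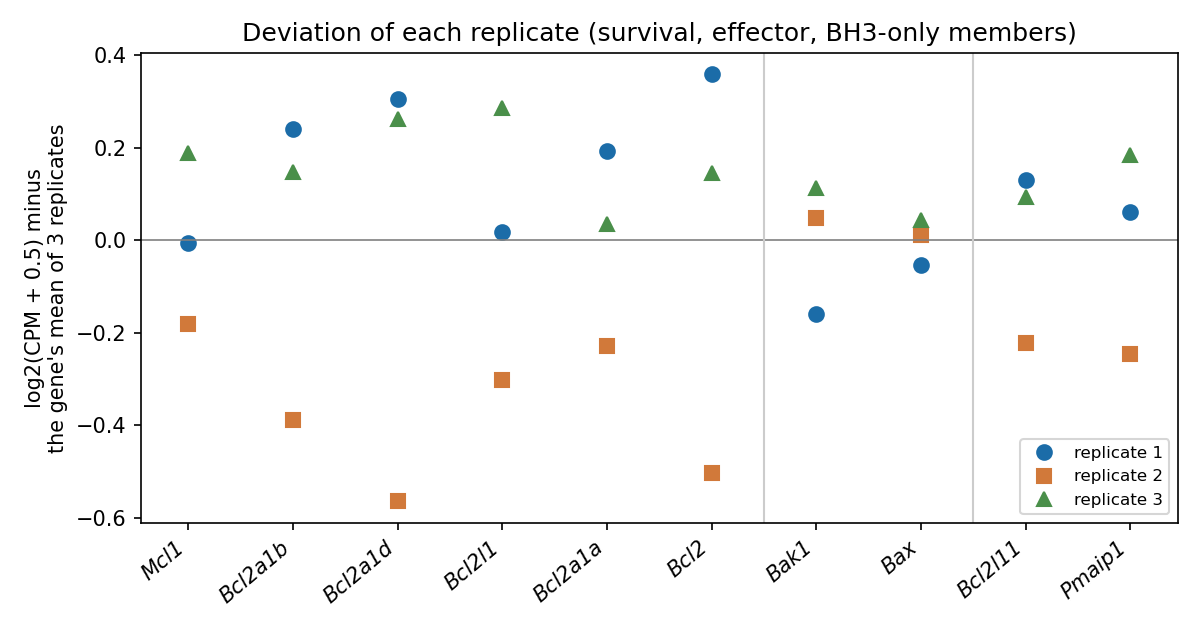
Difference of each replicate from the gene's mean of the 3 replicates on the log2(CPM + 0.5) scale (y axis) for survival members (left), effectors (middle) and BH3-only members (right). Replicate 2 is the lowest point for 8 of 10 members and lies between the other replicates for Bax and Bak1.

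The lowest CPM was in replicate 2 for 8 of the 10 members, all 6 survival members and both BH3-only members, where 29.2% of tested genes did. Both effectors were lowest in replicate 1, where 38.2% of tested genes were. The median log2 deviation of the survival members was 0.22, -0.35 and 0.17 in replicates 1, 2 and 3, and that of the BH3-only members 0.10, -0.23 and 0.14. For the effectors it was -0.11, 0.03 and 0.08. The same 8 genes were lowest in replicate 2 with DESeq2 scaling and with TPM taken over protein-coding genes alone, under which 31.6% of tested genes were lowest there. On that last scale Mcl1 had 702, 597 and 739 TPM, and the effectors were nearly level, with 161, 158 and 152 TPM for Bax and 182, 194 and 187 TPM for Bak1. Replicate 2 also had the largest share of 7SL, while the summed macrophage markers, at 15845, 18599 and 18195 CPM, were not lowest in it. The part of these library differences in the result was not tested. The 3 A1 copies share reads and are not independent of each other.

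**Figure D4:**
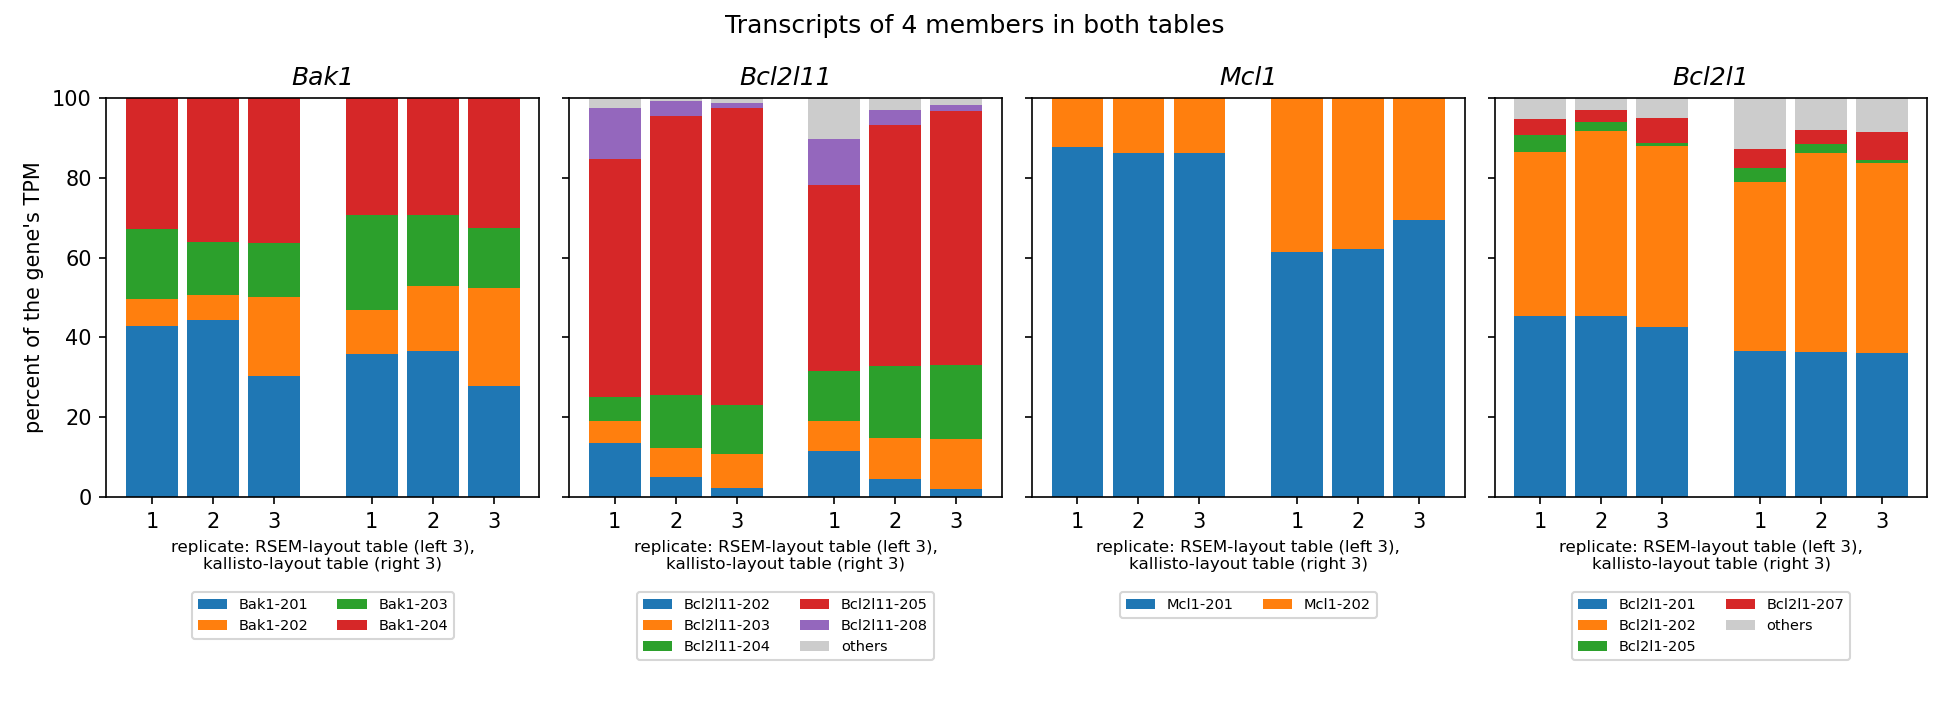
Share of TPM, in percent of the gene, held by each annotated transcript (y axis) of Bak1, Bcl2l11, Mcl1 and Bcl2l1, in replicates 1, 2 and 3 of the RSEM-layout table (left bars) and of the kallisto-layout table (right bars). Bak1-201 and Bak1-204 together hold 66.5 to 80.5% of Bak1 in the RSEM-layout table, and Bcl2l11-202 and Bcl2l11-208 hold more in replicate 1 than in the other replicates in both tables.

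The transcripts of Bak1 set it apart from Bax. Bak1-201, with the 20-base exon printed above, and Bak1-204, without the 5 bases, are both annotated as targets of nonsense-mediated decay. Together they held 75.9, 80.5 and 66.5% of Bak1 TPM in replicates 1, 2 and 3 (74.3 ± 7.14%, SD, n = 3), with 39.2 ± 7.80% on Bak1-201 and 35.1 ± 1.86% on Bak1-204. The transcripts annotated as protein-coding, Bak1-202 and Bak1-203, had 14.6, 9.86 and 23.2 TPM in sum. The kallisto-layout table put 65.2, 66.1 and 60.5% on the decay class. Both tables thus gave most of Bak1 to it, at levels that differ by about 10 percentage points. A short exon that neurons include is known from mouse Bak1; no file used here labels the 20-base exon as that one. For Bax, Bax-201, the full-length coding transcript, held 85.9 ± 1.59%.

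Mcl1-201, which holds the 138 bases, had 86.7 ± 0.94% of Mcl1 TPM and Mcl1-202 13.3 ± 0.94% (SD, n = 3). The kallisto-layout table gave Mcl1-202 35.6 ± 4.47%, so the share of this short form depends on the table. Of Bcl2l11, the BimEL-layout transcript Bcl2l11-205 held 59.7, 69.9 and 74.6% (68.1 ± 7.63%), Bcl2l11-203 (BimL) 7.07 ± 1.62% and Bcl2l11-204 (BimS) 10.5 ± 3.82%. The longest form was the largest in each library and in both tables, at 56.9 ± 9.07% in the kallisto-layout table.

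One part of Bcl2l11 differed between libraries far more than the gene did. Bcl2l11-202 and Bcl2l11-208 end inside the intron after the second coding exon. They were grouped after their values were seen. They had 8.73, 1.55 and 0.99 TPM in replicates 1, 2 and 3, which is 26.4, 8.71 and 3.41% of the gene (12.8 ± 12.0%, SD, n = 3; 6.06% without replicate 1). The kallisto-layout table gave 22.9, 8.25 and 3.51%. The remaining Bcl2l11 transcripts had 24.4, 16.2 and 28.0 TPM, with replicate 3 highest. The kallisto-layout table gave them 16.8, 6.52 and 8.64 TPM, with replicate 1 highest. Every member was highest in replicate 1 in that table, for instance Bax at 30.7, 15.4 and 16.9 TPM. This difference between the tables is thus not particular to these transcripts. The Bcl2l1 transcripts that read on past the first coding exon, Bcl2l1-205 and Bcl2l1-206, had 4.71, 2.11 and 0.89% of their gene, in the same order of libraries. This rests on low levels, 1.51, 0.39 and 0.35 TPM. That is also the order of the nuclear RNAs, whose summed level was 1324, 471 and 279 TPM, and their part in these shares was not tested. Other minor transcripts were mixed. Bcl2l11-206 had this order (1.51, 0.73 and 0.48% of its gene). Bcl2l11-207 (0.97, 0 and 0.76%) and the intron-retaining Bax-206 (0.67, 0.22 and 0.66%) did not. The transcripts of Bcl2l1 with the last coding exon, Bcl2l1-201 and Bcl2l1-202, held 88.7 ± 2.78% in sum. For the remaining genes, Bcl2-201 held 93.9 ± 2.24% and Pmaip1-201 98.3 ± 0.47%, and each A1 copy has 1 transcript.

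The median over genes was 40.2 TPM for the 10 members and 4.23 TPM for 18 further BCL2 family genes. Both lists were chosen with earlier results of these data known, so the contrast describes the lists only. Of these 18, 10 reached 1 TPM in every library. Of 13 tested, 11 differed between replicates beyond counting error, where 70.4% of all tested genes did. The highest were Bnip2, a BCL2-interacting protein, at 52.2 ± 8.72 TPM, the mitophagy receptor gene Bnip3l at 24.2 ± 4.84 TPM and Bid, a BH3-only gene whose product caspase-8 cleaves, at 18.3 ± 6.51 TPM (SD, n = 3). Bid spanned 1.56 times, with 50.3, 43.4 and 67.7 CPM. Bcl2a1c, whose counts are given above, also differed beyond counting error. The kallisto-layout table gave Bcl2a1c only 0.098, 0 and 0.015 TPM, so its counts, and this call, depend on how reads of the A1 copies are split. Hrk, a BH3-only gene known from neurons, and Bcl2l10 had 0 counts in every library, which allows up to 0.0592 CPM. Unlike the survival members, the 13 tested genes were lowest in replicates 1, 2 and 3 in 4, 4 and 5 cases; the difference between the lists was not tested.

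Downstream of the pore, 16 of 17 apoptosome, caspase and mitochondrial channel genes reached 1 TPM in every library. Vdac2, the outer membrane channel to which BAK is bound, had 82.2 ± 15.4 TPM, Birc3, an inhibitor of apoptosis gene and NF-kB target, 59.9 ± 15.1 TPM, and Vdac3, another channel, 54.1 ± 11.0 TPM (SD, n = 3). Birc5, an inhibitor of apoptosis gene of dividing cells, was lowest at 0.903 ± 0.186 TPM. In this list 12 of 17 genes differed between replicates beyond counting error, near the 70.4% of all tested genes.

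The 11 listed genes that control BCL2 members as proteins or as transcripts all reached 1 TPM in every library. Tpt1, whose product stabilises MCL1, had 684 ± 190 TPM, Pim1, a kinase that phosphorylates BAD, 169 ± 52.8 TPM, and Ywhaz, a 14-3-3 protein that holds phosphorylated BAD in the cytosol, 106 ± 23.0 TPM (SD, n = 3). Fbxw7, a ubiquitin ligase subunit for MCL1, was lowest at 6.73 ± 1.69 TPM. Of the 11, 10 differed between replicates beyond counting error, where 70.4% of all tested genes did. In CPM, 9 of the 11 were lowest in replicate 2, as were 8 of the 10 members and 29.2% of tested genes. Mdm2, the ligase for p53, spanned 1.70 times, with 245, 159 and 272 CPM. Without replicate 2 its span was 1.11 times.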

How the data were processed

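Cytosolic RNA of 3 libraries of 1 group was analysed from 1 gene table and 2 transcript tables for each library. The authors deposited expected counts, estimates of reads per gene or transcript that need not be whole, without normalisation. The authors deposited TPM in all tables, taken over every indexed feature including 7SL, and a transcript table of RSEM layout and another of kallisto layout. The deposited posterior SD is given in counts, per the file headers. Processing used mm10 with GENCODE M21, per the deposited notes. The programs behind the tables, their versions and the strand setting were not given in the sources used here, so reads of antisense genes cannot be told apart.

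The 26345 of 81881 rows that name no Ensembl gene (0.0251 to 0.0785% of counts) were left out. All 55536 Ensembl genes matched the annotation. Library sizes were scaled with TMM (edgeR 4.0.16, R 4.3.3; DESeq2 1.42.0 as an alternative). Expected counts were rounded for the Poisson heterogeneity test, which was run over the 13827 genes whose mean count reached 10, adjusted by Benjamini-Hochberg at 0.05 and tested on simulated data. A pseudocount of 1 was added to TPM before log2, and 0.5 to CPM. Tables were joined with Python 3.11.15, pandas 2.3.3 and numpy 2.4.6, and sequences aligned with Biopython 1.88. RefSeq promoters on GRCm38.p6 matched 9 of 10 members (all but Pmaip1). Counting limits cover counting error only.

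Named are all members and, of each of 3 further lists, the 3 highest in TPM, the lowest, and those past the heterogeneity test with a span over 1.5 times. A gene that meets this rule is not reported here. Members and lists were chosen with earlier results of these data known. Alternatives were other scalings, count minimums, pseudocounts, the kallisto-layout table and leaving out each replicate.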

Additional observations from a re-analysis of the deposited data

How the results depend on the processing

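With 3 libraries of 1 group, no contrast between conditions exists and the sign-flip test cannot reach 0.05. Libraries could not be paired across conditions because all belong to 1 group, and members were compared within each library. The mean TPM of every member moved by more than the spread between replicates with the kallisto-layout table and with TPM over protein-coding genes alone. Mcl1, at 221 TPM in the main setting, then averaged 112 and 679 TPM. Bcl2, at 1.32 TPM, averaged 0.63 and 4.01 TPM. Among the shares, 7 values moved by more than the spread between replicates, and among the fixed differences 1 changed direction. That was Mcl1 minus the A1 sum, 0.13 with the kallisto-layout TPM (exact permutation p = 0.75). With the kallisto-layout table, the share of survival TPM was 49.3% for Mcl1 and 45.0% for the A1 copies, Bak1 decay-class transcripts were at 63.9%, Mcl1-202 at 35.6% and Bcl2l11-205 at 56.9%. By expected counts, which do not divide by length, Mcl1 held 73.6% and the A1 copies 18.2% of the survival members. The other 9 fixed differences kept their sign under all alternatives run, though not their size: with the kallisto-layout TPM, Mcl1 exceeded Bcl2 by 6.04 and Bcl2l1 by 3.08, the A1 sum exceeded Bcl2 by 5.91, and Bcl2l1 exceeded Bcl2 by 2.96. Every member's heterogeneity call held under the 7 alternatives, Bax staying above 0.05 with an adjusted p of 0.0618 to 0.523. The genes past that test over the whole table numbered 9736, against 9704 with DESeq2 scaling, 10193 without a count minimum and 7106 to 7359 without 1 replicate. Relative to its count, the posterior SD was largest for Bcl2a1a among the members, in all 3 libraries.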

Other observations

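Several annotated genes overlap the members. Gm10634, antisense to Bcl2a1d, had 8.24, 1.96 and 1.84 CPM in replicates 1, 2 and 3, where Bcl2a1d had 98.5, 53.7 and 95.6 CPM. Gm29094, on the same strand as Bcl2a1b, had 2.43, 1.31 and 0.948 CPM. Ggnbp1, opposite Bak1, had 0.373, 0.314 and 0.355 CPM, and D630008O14Rik, antisense to Bcl2, had 0.137, 0.055 and 0.158 CPM. All 4 were below the member they overlap in each library.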
